A study of Mus musculus with 6 samples.

Results

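The photoreceptor and phototransduction genes described here are 40 genes of the light-sensing machinery of retinal rods and cones. They were taken from a gene count table of mouse cornea by matching the symbol column to a list of names. All 40 were among the 35673 rows of the table, and all 40 were among the 18804 genes tested after a filter on low counts. By known expression they were divided into 11 rod members, 10 cone members and 19 members shared by both cell types or not assigned to either.

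RNA sequencing had been done on corneal tissue of male C57BL/6J mice aged 6 to 8 weeks, in 3 libraries titled Cationorm and 3 titled Control. Cationorm, a positively charged oil emulsion, was given to the eye as drops of 5 µL for 14 days. The protocols describe these drops in animals with a contact lens-related dry eye model, made with 0.1% benzalkonium chloride and lens wear for 6 h a day. Every library, Control included, carried the tag CLDE for this model and the treatment tag wild-type, so whether Control animals received the model or no treatment cannot be told from the labels. The labels do not say how many eyes or animals went into a library or that replicates were separate animals, and the spread that the p-values below rest on may therefore be technical.

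In a photoreceptor, light activates an opsin, the opsin activates transducin, and transducin relieves the inhibition of a cyclic GMP phosphodiesterase. The fall in cyclic GMP closes cation channels in the outer segment, and arrestins, a kinase and calcium-sensing guanylate cyclase activators bring the cell back to rest. Rods and cones use separate genes for most of these steps. The cornea is the transparent front wall of the eye and has no photoreceptor layer.

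Depth was 32486043 to 39193311 counts per library, and levels are given as CPM, counts scaled to library size (counts per 1e6) with the trimmed mean of M-values (TMM). At this depth 3 counts corresponded to 0.0750 to 0.0951 CPM, which covers counting error only. The tissue label was borne out by Krt12, the keratin of corneal epithelium, at 8508, 9069 and 8586 CPM in Cationorm 1 to 3, against 8831, 8780 and 8343 CPM in Control 1 to 3. Cationorm 3 was above Cationorm 1 and Cationorm 2 in all 40 members, and results that rest on it are given with and without it.

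Promoters are shown for 4 members, each with at least 1 motif of a photoreceptor regulator: Sag for the rod genes, Gnat2 and Opn1sw for the cone genes and Rbp3 for the shared genes. Sag, Gnat2 and Rbp3 followed the profile common to the members, and Opn1sw departed from it the most. Each sequence is the 250 bases before the RefSeq start in build GRCm38.p6, 5′ to 3′ on the gene's strand. Capitals mark TAATCC, the core bound by the homeodomain factor Crx, and TGCTGA, one arm of the element bound by Maf factors and Nrl, on either strand.
Sag, chr1:87803430-87803679, plus strand: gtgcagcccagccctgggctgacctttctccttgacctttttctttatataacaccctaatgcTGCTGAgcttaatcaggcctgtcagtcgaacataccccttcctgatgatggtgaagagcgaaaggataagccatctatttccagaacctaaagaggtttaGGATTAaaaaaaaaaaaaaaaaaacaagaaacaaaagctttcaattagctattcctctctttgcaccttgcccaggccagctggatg
Gnat2, chr3:108092816-108093065, plus strand: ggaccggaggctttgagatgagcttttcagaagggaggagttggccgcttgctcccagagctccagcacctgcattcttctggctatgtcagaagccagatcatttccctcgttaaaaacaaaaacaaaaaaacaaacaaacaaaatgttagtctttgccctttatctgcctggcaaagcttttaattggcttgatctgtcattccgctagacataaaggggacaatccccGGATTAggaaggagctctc
Opn1sw, chr6:29380514-29380763, minus strand: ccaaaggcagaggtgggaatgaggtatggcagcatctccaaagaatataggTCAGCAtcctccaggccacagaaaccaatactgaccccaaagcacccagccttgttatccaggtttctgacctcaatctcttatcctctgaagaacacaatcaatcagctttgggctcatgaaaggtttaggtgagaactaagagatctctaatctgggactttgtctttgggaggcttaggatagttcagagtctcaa
Rbp3, chr14:33953753-33954002, plus strand: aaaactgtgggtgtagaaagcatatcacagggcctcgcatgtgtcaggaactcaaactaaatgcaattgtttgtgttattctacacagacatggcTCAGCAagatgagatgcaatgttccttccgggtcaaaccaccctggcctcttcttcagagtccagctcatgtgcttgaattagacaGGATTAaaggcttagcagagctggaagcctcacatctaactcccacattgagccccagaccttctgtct

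In windows from 250 bases before to 50 bases after the start, 30 of the 40 members had an entry, with 31 windows. TAATCC was in 12 of these windows (38.7%), against 7.06% of the 32544 windows of all genes in the table. TGCTGA was in 8 of them (25.8%), against 19.5% of all windows. These are matches of letters, and the motifs do not overlap each other in the printed sequences.

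All rod members had their lowest levels in Cationorm 1 and 2. Gnat1, the alpha subunit of rod transducin and the most abundant member, was at 256, 205 and 613 CPM in Cationorm 1 to 3, against 761, 644 and 483 CPM in Control 1 to 3. Its first 2 Cationorm libraries lay below every Control library, while Cationorm 3 lay within the Control range, so the groups overlapped. The fitted log2 fold change was -0.81 ± 0.40 (SE), and it did not pass the quasi-likelihood test of edgeR (adjusted p = 0.550). Sag, the rod arrestin that ends transducin activation, was at 147, 144 and 535 CPM in the Cationorm libraries and at 549, 434 and 337 CPM in the Control libraries. Here Cationorm 3 lay above Control 2 and Control 3.

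All subunits of the rod phosphodiesterase were lowest in Cationorm 2 and next lowest in Cationorm 1. Pde6b, the catalytic beta subunit, was at 90.2, 73.1 and 245 CPM in Cationorm 1 to 3, against 296, 237 and 183 CPM in Control 1 to 3. Pde6a, the catalytic alpha subunit, was at 85.9, 67.7 and 235 CPM in Cationorm, against 259, 235 and 195 CPM in Control. Pde6g, the inhibitory gamma subunit, was at 72.6, 63.8 and 189 CPM in Cationorm, against 220.2, 198 and 150.1 CPM in Control. In each subunit Cationorm 3 fell inside the Control range.

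The rod transcription factors were lowest in Cationorm 1 and 2 too. Nrl, the leucine zipper factor that sets rod fate, was at 78.0, 70.4 and 199 CPM in Cationorm 1 to 3, against 271, 256 and 169 CPM in Control 1 to 3. Nr2e3, the nuclear receptor that represses cone genes in rods, was at 25.8, 19.01 and 53.9 CPM in Cationorm, against 67.5, 60.0 and 40.9 CPM in Control. In both genes Cationorm 3 exceeded Control 3 and lay below Control 1 and 2. Among all 11 rod members, which also include the transducin subunit Gngt1, the channel subunits Cnga1 and Cngb1 and the exchanger Slc24a1, the log2 fold change ran from -1.19 to -0.68. The adjusted p of edgeR ran from 0.550 to 0.636 over these 11 genes.

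Cone members were less abundant and more uneven. Arr3, the cone arrestin, was at 22.1, 12.7 and 36.8 CPM in Cationorm 1 to 3, against 54.7, 63.7 and 28.8 CPM in Control 1 to 3. Gnb3, the beta subunit of cone transducin that ON bipolar cells also use, was at 14.7, 15.6 and 44.3 CPM in Cationorm, against 48.1, 48.7 and 39.1 CPM in Control. Both had their 2 lowest values in Cationorm 1 and 2. Gnat2, the alpha subunit of cone transducin, was at 6.69, 7.35 and 20.8 CPM in Cationorm, against 25.1, 18.2 and 16.6 CPM in Control. Pde6h, the inhibitory subunit of the cone phosphodiesterase, was at 3.11, 3.08 and 9.65 CPM in Cationorm, against 14.2, 12.9 and 9.05 CPM in Control. In each of these 4 genes Cationorm 3 lay above Control 3.

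The cone opsins did not share a profile. Opn1mw, the middle-wavelength opsin, was at 6.63, 3.92 and 8.96 CPM in Cationorm 1 to 3, against 19.4, 19.8 and 8.65 CPM in Control 1 to 3. Opn1sw, the short-wavelength opsin, was at 10.2, 7.96 and 54.4 CPM in Cationorm, against 53.6, 7.06 and 40.1 CPM in Control. Opn1sw was lowest in Control 2, the library in which Opn1mw was highest. The log2 fold changes were -1.30 ± 0.39 (SE) for Opn1mw and -0.47 ± 0.89 for Opn1sw, and neither passed the test of edgeR (adjusted p = 0.550 and 0.862). Opn1mw was the one member called by DESeq2 (adjusted p = 0.0282), which called 0.197% of the 32423 genes to which it gave a p. The gene of Opn1sw shares exons with Calu on the other strand, and the strand setting of the counting is not given in the sources used here. Calu itself was at 142 to 162 CPM in all 6 libraries.

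Of the other cone members, Pde6c, the catalytic subunit of the cone phosphodiesterase, and the channel subunits Cnga3 and Cngb3 did not pass the test of edgeR either. Cnga3 had the lowest log2 fold change of all members, -1.32 ± 0.62 (SE), on 8 counts in Cationorm 2. Cnga3 and Gngt2, the gamma subunit of cone transducin, were the 2 members of 40 whose groups did not overlap, against a background of 14.8% of the genes tested. Gngt2 shares exons with Abi3 and Pde6h with Arhgdib, each on the other strand, so reads of these pairs may be mixed.

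**Figure D1:**
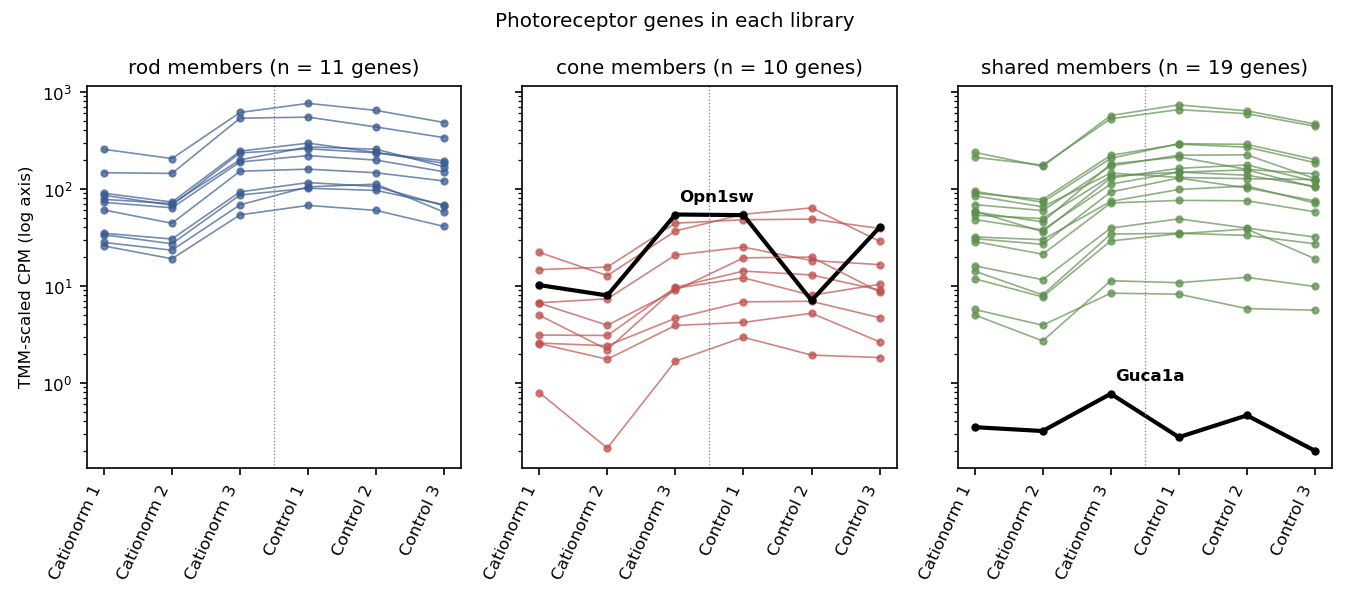
Level of each member in each library on a log axis of TMM-scaled CPM, with rod, cone and shared members in separate panels and Cationorm libraries left of Control libraries. Each point is 1 gene in 1 library, and lines only link the points of a gene. Rod members run in parallel with Cationorm 1 and 2 lowest, while Opn1sw (black) is low in Control 2 as well, and Guca1a (black) stays below 1 CPM.

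Of the 19 shared members, 17 had their 2 lowest levels in Cationorm 1 and 2. Rbp3, the retinoid-binding protein between photoreceptors and pigment epithelium, was at 238, 170.4 and 571 CPM in Cationorm 1 to 3, against 734, 637 and 467 CPM in Control 1 to 3. Prph2, a tetraspanin of outer segment disc rims, was at 212, 176 and 529 CPM in Cationorm, against 657, 595 and 442 CPM in Control. Rom1, its partner at the disc rim, was at 90.3, 77.5 and 222 CPM in Cationorm, against 289, 269 and 186 CPM in Control. In all 3 genes Cationorm 3 stood between Control 3 and Control 2.

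Members that regulate the light response, and the factor Crx, were also lowest in Cationorm 1 and 2. Pdc, phosducin, which binds the transducin beta and gamma subunits, was at 94.2, 72.9 and 206 CPM in Cationorm 1 to 3, against 292, 288 and 201 CPM in Control 1 to 3. Guca1b, a calcium-sensing activator of guanylate cyclase, was at 68.8, 59.7 and 172 CPM in Cationorm, against 222, 224 and 128 CPM in Control. Grk1, the kinase that phosphorylates activated opsin, was at 57.7, 45.7 and 180.4 CPM in Cationorm, against 213, 159 and 143 CPM in Control. Crx, the homeodomain factor of both rods and cones, was at 48.3, 37.7 and 112 CPM in Cationorm, against 149, 138 and 106 CPM in Control. In these 4 genes Cationorm 3 lay within the range of the Control libraries.

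Among the 19 shared members, 18 had a log2 fold change below 0. The exception was Guca1a, a second cyclase activator, with a log2 fold change of 0.63 ± 0.50 (SE) on 7 to 29 counts per library, against 2171 to 8892 counts for Guca1b. The span of Guca1a meets that of a neighbouring gene in the RefSeq table of GRCm38. It shares no exon with another gene in the annotation used for exon overlap. Among the 19, Abca4 and Rgs9 had the changes smallest in size, -0.37 ± 0.26 and -0.12 ± 0.30. Abca4 is the transporter that clears retinoids from discs, and Rgs9 speeds transducin shut-off. Nr2e3 shares exons with the gene model Gm15507 on the same strand, so its level is uncertain.

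Over all members, edgeR called 0 of 40 at an adjusted p of 0.05, as it called 0% of the 18804 genes tested. At an unadjusted p under 0.05 there were 10 of 40 members, all lower in Cationorm, against a background of 3.57% of genes. DESeq2 called 1 member and limma-voom called 0. The log2 fold change was below 0 in 39 of 40 members, against a background of 48.8%, with a median of -0.86 over the members and 0.0055 over all genes tested. The median SE was 0.42 for the members and 0.16 for all genes. Cationorm 1 and 2 were both below the other 4 libraries in 37 of 40 members, against a background of 13.8%. Opn1sw, Guca1a and Rgs9 were the exceptions.

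Cationorm 3 was the library on which the calls turned. It lay above Control 3 in 37 of 40 members, above Control 2 in 11 and above Control 1 in 5. Without it, edgeR called 28 of 40 members, all lower in Cationorm, against a background of 1.75% of 19170 genes. These were 10 of 11 rod, 3 of 10 cone and 15 of 19 shared members, and the median log2 fold change over the members became -1.55. The cone members called were Gnat2, Gnb3 and Pde6h. Gnat1 was then at -1.45 ± 0.20 (SE, adjusted p = 0.0325) and Sag at -1.60 ± 0.20 (adjusted p = 0.0284). Leaving out any other library gave 0 calls among the members. Cationorm 3 was above Cationorm 1 and 2 in all 40 members, so leaving it out narrows the spread of these genes within Cationorm. The members also moved largely together, so the 28 calls are not 28 separate results.

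**Figure D2:**
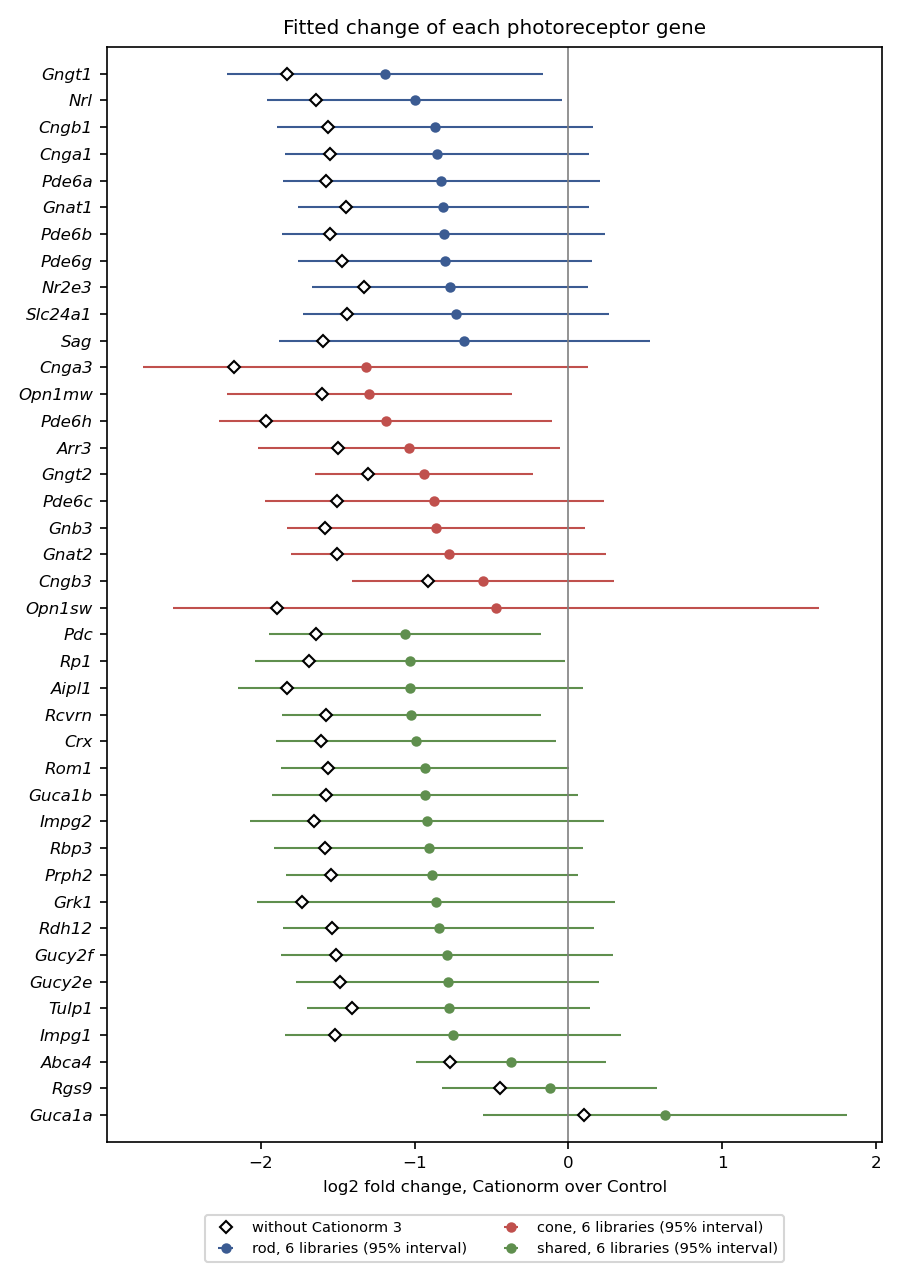
Fitted log2 fold change of Cationorm over Control for each member (circles, 95% interval of edgeR, 3 libraries against 3) and the same without Cationorm 3 (diamonds), by class. With 6 libraries 39 of 40 circles lie below 0 and most intervals reach across it. Without Cationorm 3 each diamond lies left of its circle.

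As a share of each library, the 40 members together took 0.208, 0.169 and 0.552% of counts in Cationorm 1 to 3, against 0.673, 0.589 and 0.442% in Control 1 to 3. Rod members summed to 912, 769 and 2470 CPM in the Cationorm libraries, against 2906, 2525 and 1872 CPM in the Control libraries. Cone members summed to 74.3, 57.2 and 194 CPM in Cationorm, against 241, 192 and 162 CPM in Control. Both sums were lowest in Cationorm 2 and highest in Control 1. Shared members summed to 1151, 903 and 2764 CPM in Cationorm, against 3441, 3185 and 2319 CPM in Control. In bulk tissue, fewer cells of a type and less RNA per cell cannot be told apart.

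The balance of cone to rod counts moved far less than either sum. Cone members made up 7.53, 6.93 and 7.30% of rod and cone counts in Cationorm 1 to 3, against 7.66, 7.08 and 7.96% in Control 1 to 3. The Wilson 95% intervals were 7.24 to 7.83, 6.65 to 7.22 and 7.14 to 7.46% for the Cationorm libraries, and 7.52 to 7.81, 6.92 to 7.25 and 7.76 to 8.16% for the Control libraries. The mean was 7.25 ± 0.304% in Cationorm and 7.57 ± 0.446% in Control (SD, n = 3 each), and the groups overlapped. The highest share was 1.15 times the lowest, while the rod sum varied 3.78-fold and the cone sum 4.21-fold between libraries. The median log2 fold change of rod members was 0.092 above that of cone members, within the spread of 0.138 that the difference had between libraries of a group.

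Matched subunits were compared as the cone count in percent of the rod count. Gnat2 was at 2.62, 3.58 and 3.39% of Gnat1 in Cationorm 1 to 3, against 3.29, 2.83 and 3.43% in Control 1 to 3. Of 7 such pairs only Pde6h to Pde6g had groups that did not overlap, at 4.28, 4.82 and 5.09% in Cationorm, against 6.45, 6.54 and 6.03% in Control. Among single genes tested, 14.8% had groups that did not overlap, so 1 pair of 7 is near that share. Reads of Pde6h and Arhgdib may be mixed, and their part in the ratio of Pde6h to Pde6g was not tested. Per kilobase of coding sequence, the mean level of Gnat2 was 3.16% of that of Gnat1, and the mean level of Arr3 was 10.8% of that of Sag.

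To ask whether the members moved as one factor, the log2 CPM of each was centred over the 6 libraries and the median over members was taken as a common profile. Relative to the Control mean, the median member was at 0.381, 0.305 and 0.970 in Cationorm 1 to 3, against 1.16, 1.07 and 0.771 in Control 1 to 3. The first principal component held 89.9% of the variance of the members, against 39.1% for all genes tested. Within classes it held 98.6% for rod, 79.6% for cone and 94.0% for shared members. Without Opn1sw and Guca1a it held 95.5%. The second component held 5.97%, and Opn1sw carried 72.4% of its squared loading. The log2 CPM of all genes carried a prior count of 2, which damps low counts, while the common profile had none. The 6 libraries also share each depth and scaling between genes, so these shares are descriptions.

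The departure of a member from the common profile stayed under 0.5 on the log2 scale in every library for 33 of 40 members. The closest were Cnga1, a rod channel subunit, and Prph2, with root mean squares of the departure of 0.027 and 0.029. The largest departures were -2.16 for Opn1sw in Control 2, -1.30 for Cnga3 in Cationorm 2 and -1.16 for Guca1a in Control 1. Cnga3 and Guca1a were the 2 members with fewer than 50 counts in some library, whereas Opn1sw had 245 to 2144. The other members past 0.5 were Rgs9, Opn1mw, Cngb3 and Abca4. The median of the largest departure per gene was 0.130 for rod, 0.413 for cone and 0.192 for shared members.

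**Figure D3:**
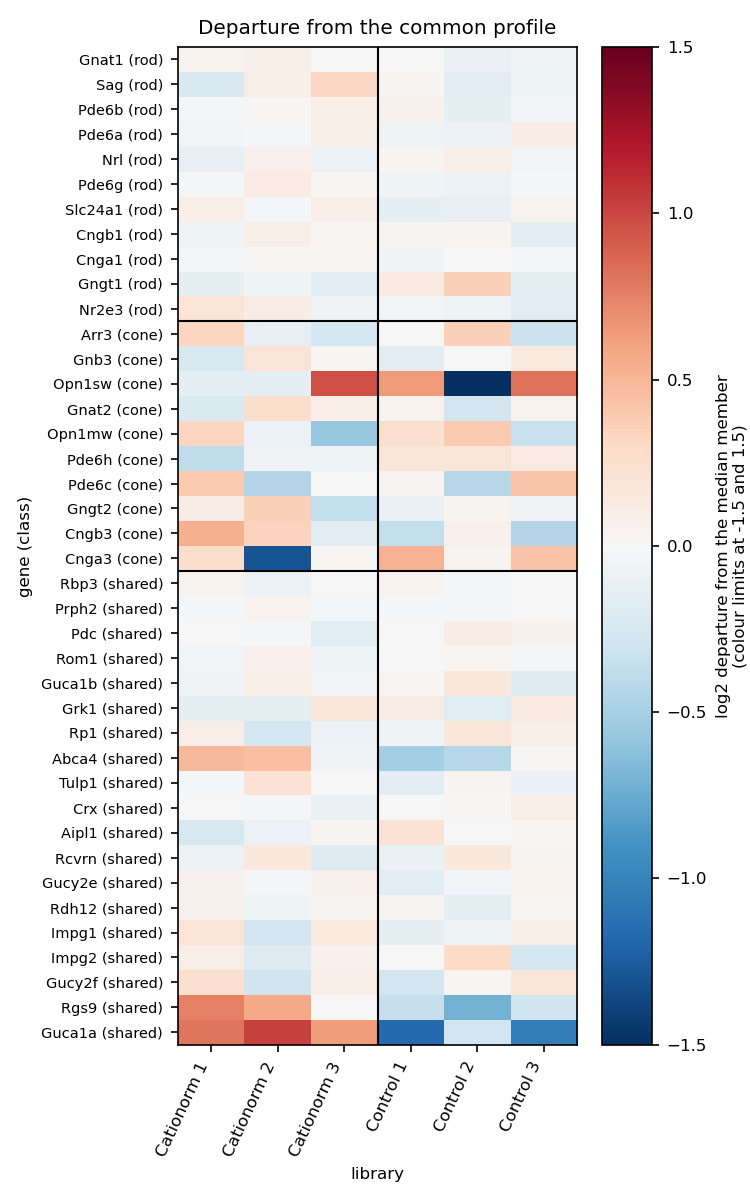
Departure of each member from the median member in each library, in log2 units, with genes in rows by class and mean level and Cationorm libraries left of Control libraries. Most cells are near 0, and the strongest departures are Opn1sw in Control 2 and Cnga3 in Cationorm 2.

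The opsins were then compared within the cones of each library. In mouse retina, Opn1sw is higher in ventral cones and Opn1mw in dorsal cones. Opn1sw made up 60.6, 67.0 and 85.9% of the counts of both opsins in Cationorm 1 to 3, against 73.4, 26.3 and 82.3% in Control 1 to 3. The Wilson 95% interval of Control 2 was 23.6 to 29.2%, below the intervals of the other 5 libraries, the lowest of which was 56.3 to 64.6% in Cationorm 1. The ratio of Opn1sw to Arr3 counts was 0.460, 0.625 and 1.48 in Cationorm, against 0.979, 0.111 and 1.39 in Control. That of Opn1mw to Arr3 was 0.299, 0.308 and 0.244 in Cationorm, against 0.355, 0.311 and 0.300 in Control. The Opn1mw ratio thus varied 1.46-fold and the Opn1sw ratio 13.3-fold.

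Vax2 and Tbx5, homeobox and T-box factors of ventral and dorsal retina, were looked up after the opsin values had been seen. Vax2 was at 1.01, 0.610 and 5.37 CPM in Cationorm 1 to 3, against 3.82, 1.04 and 3.02 CPM in Control 1 to 3. Tbx5 was at 0.793, 2.20 and 0.850 CPM in Cationorm (25, 83 and 32 counts), against 0.250, 1.35 and 0.882 CPM in Control (10, 47 and 31 counts). Vax2 was low in the 3 libraries in which Opn1sw was low, Cationorm 1, Cationorm 2 and Control 2. In Cationorm 1 and 2, however, 37 of 40 members were low. Opn1sw departed from the common profile by only -0.13 and -0.14 there, against -2.16 in Control 2. Tbx5 was highest in Cationorm 2. Vax2 and Tbx5 are also used outside the retina, and their part in the opsin values was not tested.

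**Figure D4:**
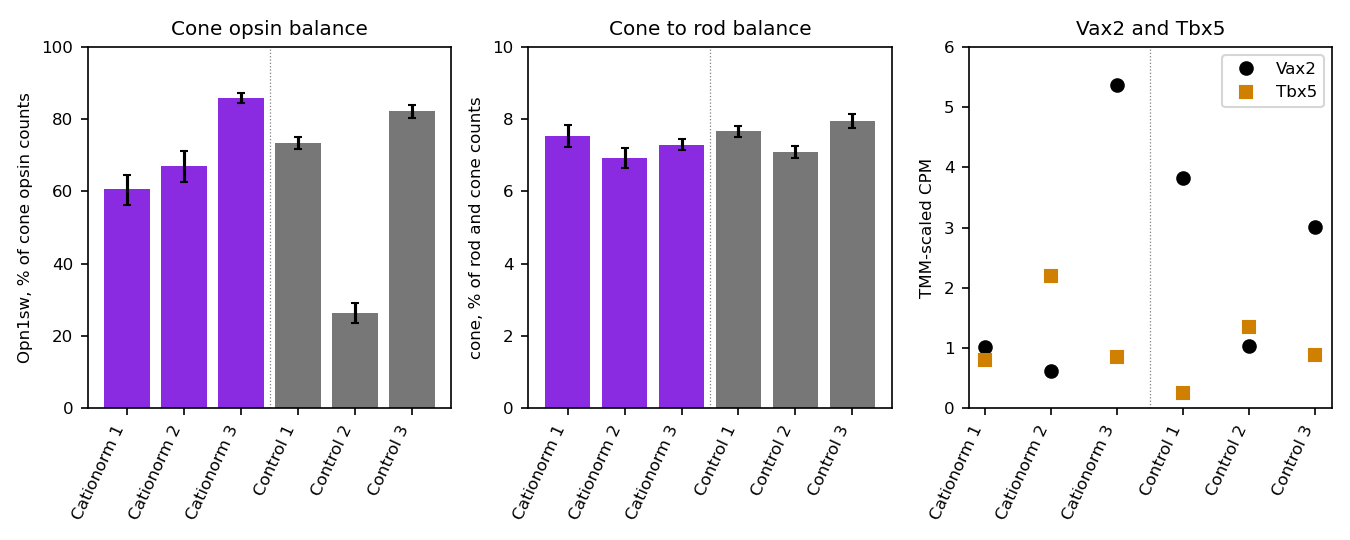
Left, Opn1sw in percent of the counts of both cone opsins; middle, cone members in percent of rod and cone counts; right, Vax2 and Tbx5 in TMM-scaled CPM, each by library with Cationorm libraries first. Bars are single libraries with Wilson 95% intervals for counting error. Opn1sw is at 26.3% in Control 2 and at 60.6% or more elsewhere, while the cone share stays between 6.93 and 7.96%.

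Genes of the same pathway outside the members were read from a list of 30 other photoreceptor genes. Of these, 28 had a log2 fold change below 0, against a background of 48.8%, with a median of -0.76, against 0.0055 over all genes tested. EdgeR called 0 of the 30, and 4 were lower at an unadjusted p under 0.05, against a background of 3.57%. Without Cationorm 3, 20 of 30 were called, all lower, against a background of 1.75%. Unc119, a carrier of lipidated transducin, was at 78.0, 70.8 and 173 CPM in Cationorm 1 to 3, against 228, 203 and 147 CPM in Control 1 to 3. Prom1 and Gnb1, which many cell types use, had smaller changes of -0.16 ± 0.07 and -0.31 ± 0.16 (SE).

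The median genes of other retinal neurons were lowest in Cationorm 1 and 2, as the median member was. Of 10 bipolar cell genes 9 had a log2 fold change below 0, of 8 tested amacrine and horizontal cell genes 7, and of 8 ganglion cell genes 7, against a background of 48.8%, with medians of -0.72, -1.02 and -0.85, against 0.0055 over all genes tested. None of these genes was called with 6 libraries by edgeR. DESeq2 called 1, in the bipolar list, against a background of 0.197%, both counted in either direction. At an unadjusted p under 0.05 each of the 3 lists had 1 gene lower and 1 gene higher, against 3.57 and 5.16% of all genes. The bipolar gene above 0 was Trpm1, which pigment cells also use, at 0.82 ± 0.24 (SE). In the amacrine and horizontal list it was Slc6a9, at 0.25 ± 0.07, and in the ganglion cell list Rbpms, at 0.24 ± 0.10. Each was the most abundant gene of its list. Without Cationorm 3, edgeR called 6 bipolar, 3 amacrine and horizontal, and 0 ganglion cell genes, all lower, against a background of 1.75%. Gad1, the GABA-synthesising enzyme of amacrine cells, was at 8.72, 7.98 and 31.3 CPM in Cationorm, against 42.0, 26.0 and 24.3 CPM in Control. Of 7 genes of Müller glia, the support cells of the retina, 5 had a log2 fold change below 0, against a background of 48.8%. The median of the 7 was -0.17, and at an unadjusted p under 0.05, 1 was lower and 1 higher. The median gene of this list was also lowest in Cationorm 1 and 2. Without Cationorm 3, edgeR called 1 of these genes, lower in Cationorm. The most abundant of them, Glul, was at 1704 to 1843 CPM in Cationorm, against 1673 to 2139 CPM in Control.

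Markers of pigmented and other eye tissues had other profiles over the libraries than the members. All 7 genes of retinal pigment epithelium and all 10 of melanocytes, iris and ciliary body had log2 fold changes above 0, against a background of 51.2%, with medians of 0.53 and 0.96, against 0.0055 over all genes tested. EdgeR called 0 of them. At an unadjusted p under 0.05, 2 of the 7 and 9 of the 10 were higher, against a background of 5.16%, and DESeq2 called 2 of the second list, against a background of 0.197%. The second list summed to 1506, 1226 and 1189 CPM in Cationorm 1 to 3, against 498, 434 and 1066 CPM in Control 1 to 3, so Control 3 was close to Cationorm. Lens genes summed to 1883, 4188 and 6939 CPM in Cationorm, against 94.5, 3599 and 2922 CPM in Control. Skeletal muscle genes summed to 105, 1903 and 809 CPM in Cationorm, against 655, 126 and 1167 CPM in Control. Corneal epithelial genes summed to 58561 to 63171 CPM in Cationorm, against 56439 to 60190 CPM in Control. Of 6 keratocyte genes 4 had a log2 fold change below 0, against a background of 48.8%, with a median of -0.47. At an unadjusted p under 0.05, 3 of the 6 were lower, against a background of 3.57%. They summed to 2712, 1762 and 1779 CPM in Cationorm 1 to 3, against 2645, 2608 and 2238 CPM in Control 1 to 3. Leukocyte and corneal endothelial genes had medians of -0.11 and 0.032. The part of these tissues in the values of the photoreceptor genes was not tested.

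**Figure D5:**
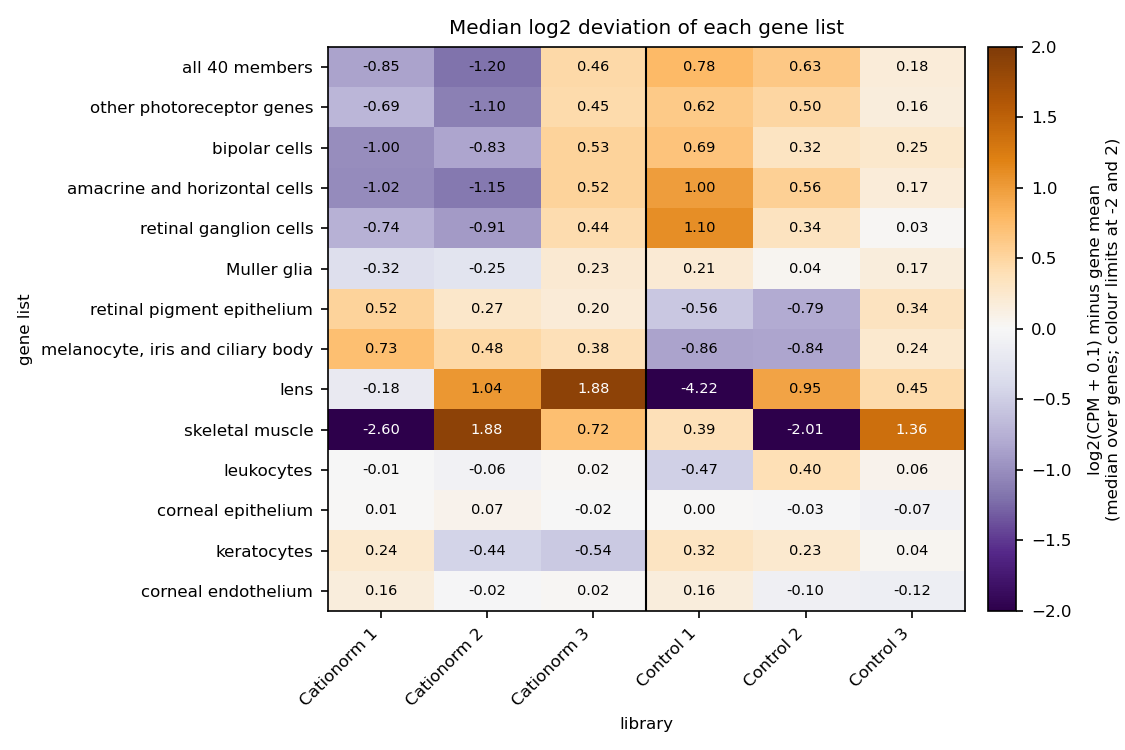
Median over the genes of each list of log2(CPM + 0.1) minus the gene's mean, by library, with Cationorm libraries left of Control libraries. The members and the other photoreceptor, bipolar, amacrine and horizontal, and ganglion cell lists are below 0 in Cationorm 1 and 2 and above 0 in the other 4 libraries. The Müller glia list has the same signs, at -0.32 and -0.25 in Cationorm 1 and 2. Corneal epithelium stays between -0.07 and 0.07.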

How the data were processed

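RNA sequencing of mouse cornea gave 6 libraries, grouped by their titles into Cationorm and Control. The authors deposited raw counts, 1 column for each library and 1 row for each gene symbol, per the file headers. DESeq2 and the builds GRCm39 and mm39 are in the submitters' processing notes, with no role. Neither the aligner and counting tool nor the strand setting is stated there, and the annotation release is not given in the sources used here. Among counts of 1 to 9, 61.6 to 65.2% were even, against 50.5 to 51.6% of counts over 20. If a fragment could add more than 1 count, the counting intervals and floors are too narrow. Within-group pairs differed by more than sampling noise (chi-square over its degrees of freedom from 30.5 to 72.7).

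Counts were scaled by TMM, filtered with filterByExpr, and compared between groups by quasi-likelihood F-tests in edgeR 4.0.16 (R 4.3.3), with Benjamini-Hochberg adjustment over all 18804 genes tested and a threshold of 0.05. Lists are described by counts and medians, with no p of their own. DESeq2 1.42.0 and limma-voom (limma 3.58.1), other scalings and filters, the replicate number as a block and each library left out were the alternatives. The procedure was tested on simulated counts. The common profile, the departures and the components within classes used log2 CPM with no prior count, and list profiles used log2(CPM + 0.1). A prior count of 2 was used for the component of all genes and the check of libraries with the same number. Exon overlap and coding length came from a GRCm38 annotation and promoters from RefSeq.

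The members and the gene lists were chosen with earlier results of these data known. Per-library values are given for the 6 most abundant members of each class, both cone opsins, Crx, Nrl, Nr2e3 and any member called by edgeR with all 6 libraries (none was), and other members by ranges and counts. From other lists at most the 3 most abundant genes are named. Genes named for being an extreme or an exception, and Calu, Abi3, Arhgdib, Gm15507, Vax2 and Tbx5, were chosen after their values or overlaps were seen.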

Additional observations from a re-analysis of the deposited data

How the results depend on the processing

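With 6 libraries the count of members called was 0 under edgeR with DESeq2 size factors, upper-quartile factors, total counts, no filter, a stricter filter or an adjusted p of 0.10, and under limma-voom, and 1 under DESeq2. Leaving out 1 library gave 0 to 28 calls and a median log2 fold change of -1.55 to -0.56, and both the 28 and the -1.55 came without Cationorm 3. In that fit 16 of the 20 members whose level in each library is printed above became called. Over all genes edgeR called 350 without Cationorm 3, 8 without Control 3, 1 without Control 2 and 0 without each of the others. The median stayed between -1.03 (limma-voom) and -0.86 under the scalings, filters and other tools. The log2 fold change of Opn1sw ran from -1.89 without Cationorm 3 to 0.038 without Control 1, where its sign turned, and the cause was not tested. The rod to cone difference of 0.092 ran from -0.0058 without Cationorm 3 to 0.18 without Cationorm 1, and each alternative moved it by less than its spread of 0.138 between libraries. It was 0.092 with both opsins left out, which was added after seeing the data. The opsins lie on opposite sides of the cone median, so leaving out both could not move it. This setting therefore does not show whether the opsins matter. Libraries with the same number did not deviate together (r of -0.178, -0.306 and -0.163). Libraries of unlike number were not compared, so this check cannot exclude pairing by number. With the replicate block, edgeR called 0 members and the median was -1.05. Depth limits Guca1a (7 to 29 counts) and Cnga3 most.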

Other observations

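Control 3 was below Control 1 and 2 in 38 of 40 members, with a median of 0.771 of the Control mean. It was also the Control library in which genes of melanocytes, iris and ciliary body summed highest, at 1066 CPM, against 498 CPM in Control 1 and 434 CPM in Control 2. Of the 40 members, the highest library was Control 1 in 24, Control 2 in 12 and Cationorm 3 in 4 (Opn1sw, Guca1a, Abca4 and Rgs9). The lowest library was Cationorm 2 in 36.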
